A study of Mus musculus with 24 samples.

Results

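The NCoR/HDAC3 corepressor complex is described here through the genes of its core subunits, Ncor1, Hdac3, Tbl1x, Tbl1xr1 and Gps2, and the binding sites of the nuclear receptor Rev-erbα around them. These 5 genes of the 22350 protein-coding genes in the mm9 annotation (GENCODE vM1) were taken by name, and every site from 20 kb before to 20 kb after each gene body was collected. The series holds 24 mouse samples in 16 groups, and the sites come from 3 of these groups (5 samples), all wild-type C57BL/6 mice at zeitgeber time 10 (the labels' ZT10). The tissues are the epididymal white fat pad (eWAT; ChIP-seq, 2 libraries), the ventral tegmental area of the brain (ChIP-seq, 1 library) and the liver (ChIP-exo, 2 libraries), each with Rev-erbα precipitated. The labels give no age, and all 3 groups used the same antibody against Rev-erbα.

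Rev-erbα, encoded by Nr1d1, is a heme-binding nuclear receptor of the circadian clock that represses transcription by recruiting a corepressor complex. In that complex NCoR1 is the scaffold that contacts the receptor, HDAC3 is the histone deacetylase that NCoR1 activates, TBL1 and TBLR1 are related WD40-repeat proteins that hold the complex on chromatin and link it to the ubiquitin machinery, and GPS2 is a small subunit that joins them. Rev-erbα binds DNA as a monomer at an AT-rich run followed by the nuclear receptor half-site AGGTCA (the RORE), or as a dimer at a direct repeat of that site (DR2), and other transcription factors can also hold it on chromatin. In ChIP-exo an exonuclease chews each strand back until it meets the bound protein, so each site leaves borders, with a plus-strand border on its left and a minus-strand border on its right.

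All 5 genes had sites nearby, and 3 of the 12 peaks lay within 1 kb of an annotated start of the gene itself. Among the 3 was the Ncor1 peak, at an internal start and 127082 bp downstream of the outermost one. Each of the 5 had a peak of at least 1 tissue, whereas 47.3% of all protein-coding genes had neither. The windows held 5 of the 9016 eWAT peaks, 7 of the 10687 brain peaks and 147 of the 245360 liver borders. An eWAT peak was present in the windows of Ncor1, Hdac3, Tbl1x and Tbl1xr1 (4 of 5 genes), against 28.7% of all protein-coding genes. A brain peak was present in the windows of Hdac3, Tbl1x, Tbl1xr1 and Gps2 (4 of 5 genes), against 41.5% of all genes. Hdac3, Tbl1x and Tbl1xr1 had a peak of each tissue, as had 17.5% of all genes, Ncor1 had an eWAT peak alone (11.2% of genes) and Gps2 had brain peaks alone (24.0%). Liver borders lay in all 5 windows, against 87.7% of genes, and closely spaced border pairs in 4 of 5, all but Hdac3, against 51.0%. The deposited files hold 1 list per group, so there is no spread between replicates, no test was made, and the shares over all genes describe the background alone.

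Window length moved with these counts, and its part in them was not tested. Ncor1, Tbl1x and Tbl1xr1 are long genes with windows of 182.1, 192 and 179.9 kb, among the longest when all gene windows are ranked by length and cut into 5 equal classes. In that class 47.6% of genes had an eWAT peak, 54.4% a brain peak and 62.6% a border pair. Hdac3, with a window of 59.1 kb, lay in the middle class, where these shares were 28.2%, 45.3% and 57.4%. Gps2, with a gene body of only 2.7 kb and a window of 42.7 kb, lay in the shortest class, where they were 12.9%, 20.4% and 26.4%.

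**Figure D1:**
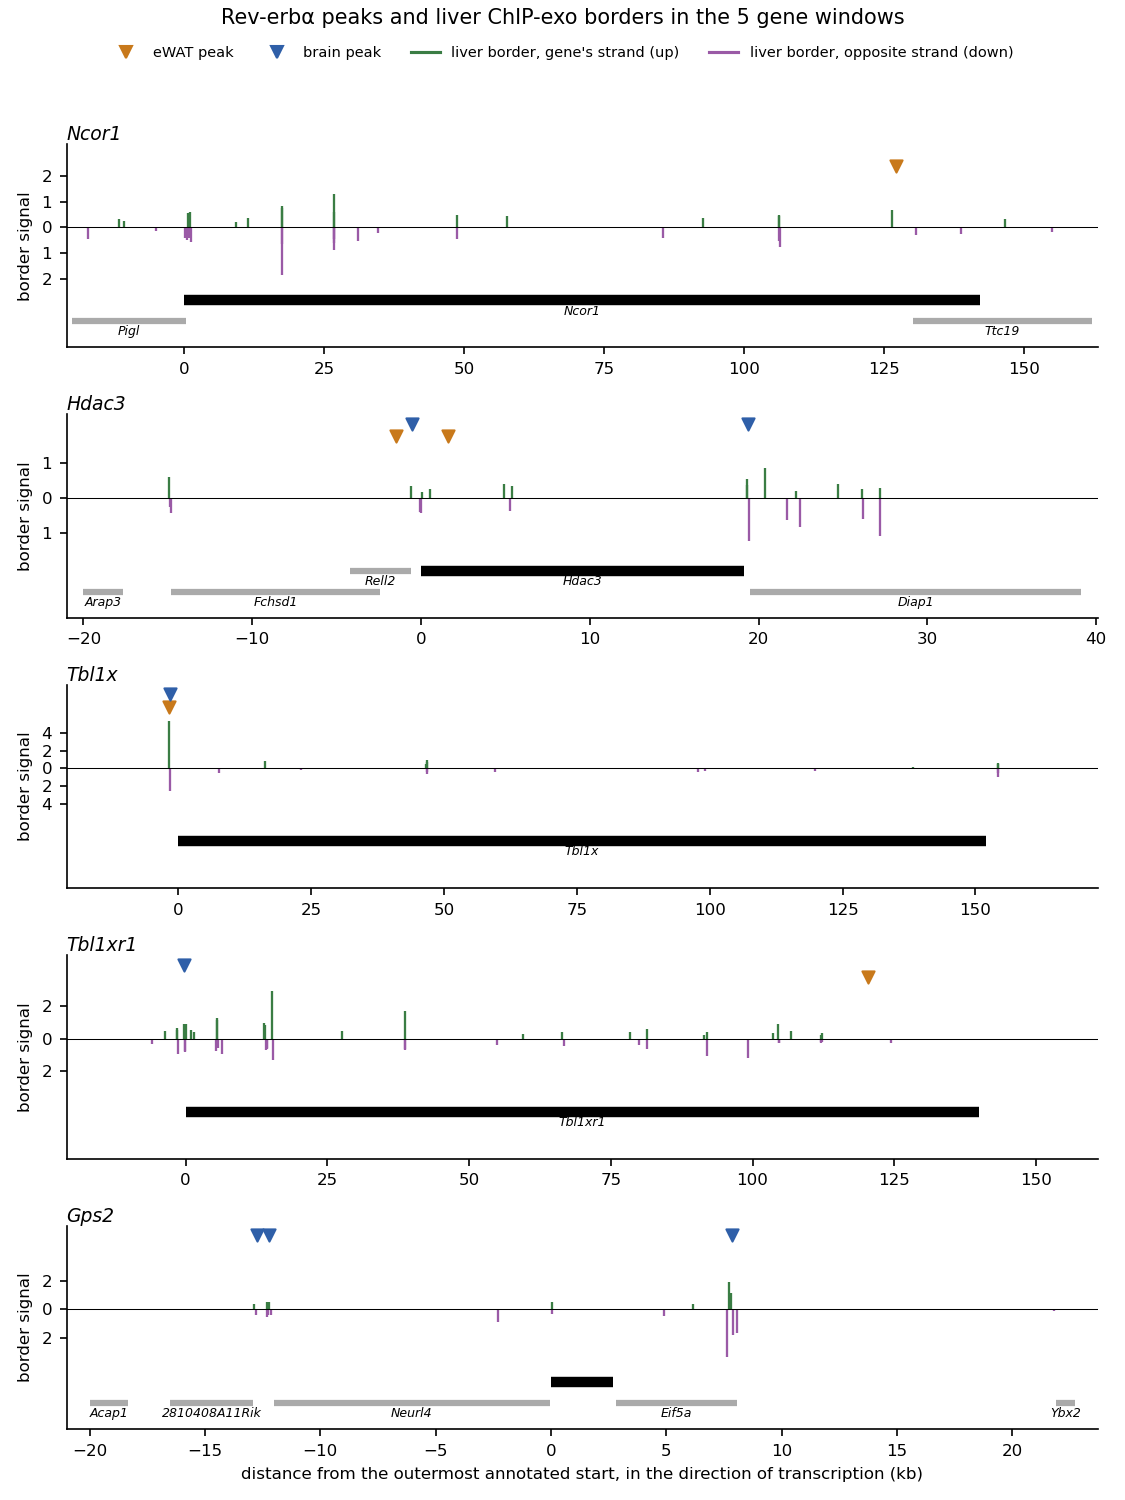
Sites in the 5 windows, plotted against the distance in kb from each gene's outermost start in the direction of transcription. Triangles are peaks, vertical lines are liver borders with their deposited signal as height, black bars are the members and grey bars are neighbouring protein-coding genes. The 3 Gps2-window peaks sit over Eif5a and at the starts of 2810408A11Rik and Neurl4, and the Tbl1x peaks of both tissues lie together just before the gene.

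The DNA under the sites that the account below turns on was read from the mm9 genome (plus strand, 5′ to 3′). The Tbl1x region, chrX:74754621-74754855, joins the overlapping eWAT and brain peaks and is shown because it was the only site called in both tissues; capitals mark an ATCAAT match (the core of ONECUT sites), a GGTCA core on the minus strand (printed as TGACC) and an E-box, CACGTG. The Tbl1xr1 region, chr3:21975219-21975368, is the brain peak at that gene's promoter, with a GC box (GGGCGG, here on the minus strand) in capitals. The Ncor1 region, chr11:62144886-62145035, is the only peak in the Ncor1 window, with a GGTCA core on the minus strand and a CCAAT box in capitals. The Ncor1 border region, chr11:62254571-62254652, carries the strongest close border pair of the 5 windows, and its capitals are the 4 border positions. The Gps2-window region, chr11:69715110-69715259, is the brain peak with the most borders, before Neurl4, and holds none of the motifs searched.
Tbl1x eWAT and brain: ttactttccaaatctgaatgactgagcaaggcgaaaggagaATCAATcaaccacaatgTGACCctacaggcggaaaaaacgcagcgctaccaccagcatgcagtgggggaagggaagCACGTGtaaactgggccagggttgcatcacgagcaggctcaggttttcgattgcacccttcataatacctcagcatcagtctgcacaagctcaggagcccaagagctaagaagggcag
Tbl1xr1 brain: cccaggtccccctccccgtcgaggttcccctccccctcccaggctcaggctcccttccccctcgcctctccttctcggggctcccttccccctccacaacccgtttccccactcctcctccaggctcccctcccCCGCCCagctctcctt
Ncor1 eWAT: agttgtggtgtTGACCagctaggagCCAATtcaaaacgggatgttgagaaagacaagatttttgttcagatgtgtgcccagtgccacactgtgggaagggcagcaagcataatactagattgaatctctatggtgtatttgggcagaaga
Ncor1 liver borders: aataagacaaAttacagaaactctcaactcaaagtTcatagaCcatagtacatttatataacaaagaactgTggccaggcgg
Gps2 window brain: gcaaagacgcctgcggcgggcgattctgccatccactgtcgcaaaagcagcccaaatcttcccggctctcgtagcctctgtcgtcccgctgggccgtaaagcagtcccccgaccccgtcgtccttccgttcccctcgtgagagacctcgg

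Ncor1, the scaffold (ENSMUSG00000018501.10, chromosome 11, 62129928 to 62272043, minus strand), had 1 peak, in eWAT, and it lay far inside the gene. The peak was in an intron 127082 bp downstream of the outermost start and 516 bp upstream of the start of a retained-intron transcript, 1 of the gene's 23 annotated starts. Its score in the authors' list was 15.2, reached by 49.2% of eWAT peaks, so it stood at the middle of the list. No liver border lay within 100 bp of its centre and the nearest brain peak was 50041 bp away. Neither tissue had a peak at the outermost Ncor1 promoter. Liver borders did stand there, 163 to 1146 bp downstream of the outermost start, with signals from 0.40 to 0.62. Just outside the window, 35625 bp beyond the gene end in eWAT and 35008 bp in brain, lay a peak of each list at the neighbouring gene Zswim7.

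Ncor1 held 37 liver borders, 20 on the plus and 17 on the minus strand, with deposited signals from 0.138 to 1.85 and a median of 0.462. That is 2.03 borders per 10 kb of window, a density higher than that of 62.7% of protein-coding genes. They formed 6 pairs of a plus-strand border and the next minus-strand border 5 to 60 bp downstream, more than in any of the other 4 windows. Pairs can share a border, and those starting at 62245291 and 62245297 had the same minus-strand border. All 6 were intronic. In the border region shown above, 2 pairs stood side by side, 25 and 29 bp wide, about 17.4 kb into the gene (17450 and 17416 bp). The 29 bp pair had a signal sum of 2.61, reached by 15.9% of the 26535 pairs of the list, and the 25 bp pair had 1.48, reached by 46.5%. The other 4 pairs had sums from 0.940 to 1.23, all below the list median of 1.41.

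Hdac3, the deacetylase (ENSMUSG00000024454.8, chromosome 18, 38095498 to 38114642, minus strand), had 2 eWAT and 2 brain peaks, and none was shared. The best ranked eWAT peak (38112971 to 38113120) was in an intron 1596 bp downstream of the outermost start, with a score of 19.2, reached by 31.2% of eWAT peaks. The nearest brain peak to it was 2116 bp away. The second eWAT peak (38116027 to 38116176) was in an exon of the divergent neighbour Rell2, 64 bp downstream of a Rell2 start and 1460 bp upstream of Hdac3. Its score of 10.1 was the lowest value in the eWAT list. Neither eWAT peak had a liver border within 100 bp.

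Both brain peaks in the Hdac3 window lay closer to a neighbour's start than to an Hdac3 start. The one at 38115087 to 38115236 was in the stretch between the divergent genes, 51 bp upstream of Rell2 and 520 bp upstream of Hdac3, with a score of 25.5, reached by 65.4% of brain peaks. The other (38095176 to 38095325) was beyond the end of Hdac3, 121 bp upstream of the start of Diap1, which encodes a formin that assembles actin filaments. Its score of 65.4 was reached by 4.85% of brain peaks and was the highest of the 7 brain peaks in the 5 windows. A plus-strand border of signal 1.25 lay 54 bp before its centre and a minus-strand border of 0.541 lay 79 bp after it. The window held 23 borders in all (3.89 per 10 kb, above 84.1% of genes), with signals from 0.175 to 1.25. Most of the 23 had a neighbour's start (Diap1, Rell2 or Fchsd1) as the nearest. Those nearest to an Hdac3 start had signals from 0.175 to 0.426. Each border above the list median of 0.471 had Diap1 or Fchsd1 as the gene with the nearest start. No 5 to 60 bp pair was among the 23, as for 42.6% of genes in the same class of window length.

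Tbl1x, the X-linked WD40 subunit (ENSMUSG00000025246.7, chromosome X, 74756352 to 74908322, plus strand), had the strongest eWAT site of the 5 genes and the only one called in both tissues. The eWAT peak lay 1656 bp upstream of the outermost start, outside any gene, with a score of 55.7, reached by 2.55% of eWAT peaks (rank 221). The brain peak overlapped it by 65 bp, with a centre 1571 bp upstream and a score of 43.6, reached by 17.0% of brain peaks. For scale, the top peak of each list lay in the window of Nr1d1, which encodes Rev-erbα itself, with scores of 281.6 in eWAT and 516.3 in brain. These top peaks were at different places, 98644730 to 98644879 in eWAT and 98636587 to 98636736 in brain. Overlap with the other tissue was found for 7.83% of all eWAT peaks and 6.61% of all brain peaks. Among the 5 windows, 1 of 5 eWAT peaks and 1 of 7 brain peaks overlapped.

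The strongest liver border of the 5 windows lay at the same place. A plus-strand border of signal 5.33 stood 86 bp before the eWAT peak centre and a minus-strand border of 2.51 stood 76 bp after it, 162 bp apart. Of all 245360 borders, 0.217% had a signal as high as the first and 1.23% as high as the second. Their p-values in the list were 0.0159 and 0.0396. The remaining 17 borders of the Tbl1x window had signals of at most 1.03, and at 0.990 per 10 kb the window was sparser than those of the other 4 genes and higher than 41.8% of all genes. Its 3 close pairs, 8, 24 and 26 bp wide, lay far away, 1 in an intron and 2 beyond the gene end. The 2 beyond the gene end shared their minus-strand border.

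By the ranks of their best peak in each tissue, 5 of the 3901 other genes with a peak in both lists came within 1 percentage point of Tbl1x. The 3 nearest were Tmem39b (2.70% of eWAT and 17.0% of brain peaks scoring as high), Col15a1 (2.80% and 17.0%) and Gm10293 (2.22% and 17.0%). Likeness was measured over these 2 ranks alone, and brain scores have many ties.

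**Figure D2:**
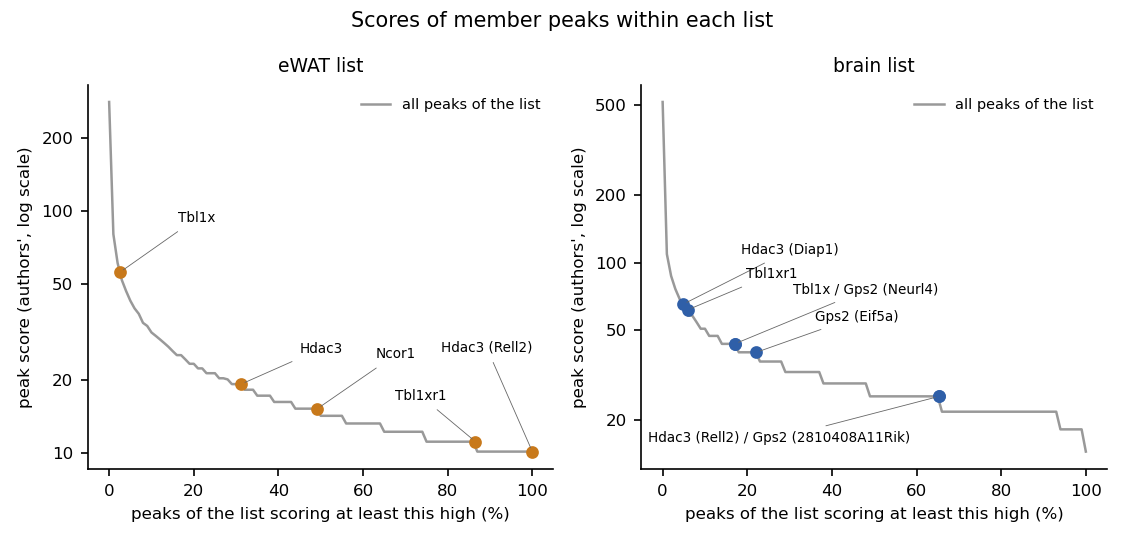
Deposited score of each of the 12 member peaks (points, log axis) at its place in the eWAT list (left) and the brain list (right), where the x axis gives the percentage of the list scoring at least as high and the grey line is the whole list. The name in brackets is the neighbour whose start is nearest. Tbl1x leads the 5 eWAT points at 2.55%, and the brain points at the top left belong to the Hdac3 window (at Diap1) and Tbl1xr1.

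Tbl1xr1, the paralogous WD40 subunit (ENSMUSG00000027630.8, chromosome 3, 21975574 to 22115516, plus strand), differed from Tbl1x in where its peaks lay. The brain peak was at the promoter, 280 bp upstream of its only annotated start, with a score of 61.8, reached by 5.98% of brain peaks. It was the only brain peak of the 7 that lay within 1 kb of a start and had a member's start as the nearest one. The eWAT peak was 120296 bp downstream in an intron, with a score of 11.1, near the bottom of the list (reached by 86.6%), and had no liver border within 100 bp. In liver, the promoter carried a plus-strand border of signal 0.879 that lay 37 bp before the brain peak centre. The next minus-strand borders were 130 and 191 bp further on, with signals of 0.775 and 0.793.

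The Tbl1xr1 window held 50 liver borders, 25 on each strand, the highest count of the 5 genes (2.78 per 10 kb, above 73.5% of genes). Signals ran from 0.177 to 2.91 with a median of 0.594. The strongest border stood in an intron 15305 bp (midpoint with its partner) downstream of the start, where no eWAT or brain peak was called. Its signal of 2.91 was reached by 0.873% of borders, and a minus-strand border of 1.29 followed 158 bp later. Of the 20926 pairs in the list spaced 61 to 200 bp, 2.43% had as high a signal sum. The 4 close pairs were 7, 11, 24 and 58 bp wide, and the 11 bp pair had the highest signal sum, 2.28, reached by 21.1% of pairs.

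Gps2 (ENSMUSG00000023170.8, chromosome 11, 69727390 to 69730093, plus strand) had 3 brain peaks in its window and no eWAT peak, and all 3 brain peaks lay at promoters of other genes. The peak at 69714578 to 69714727 was 164 bp upstream of 2810408A11Rik, with a score of 25.5, reached by 65.4% of brain peaks. The peak at 69715110 to 69715259 was 195 bp upstream of Neurl4, which encodes a protein with neuralized repeats, with a score of 43.6, reached by 17.0%. The peak at 69735178 to 69735327 was 207 bp downstream of a start of Eif5a, which encodes a translation factor, with a score of 40.0, reached by 22.1%. Their distances from the outermost Gps2 start were 12737, 12205 and 7863 bp. One further brain peak lay 32851 bp from the gene body, outside the window, at Kctd11.

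The Gps2 window held 18 liver borders, and each was within 1 kb of an annotated start. That is 4.22 per 10 kb, the highest density of the 5 windows and above 86.6% of genes. The starts of Gps2 itself had borders of 0.376 and 0.504, near the list median of 0.471. The strong borders were at Eif5a, where 5 borders had signals of 3.34, 1.90, 1.79, 1.67 and 1.12. The strongest of them, reached by 0.644% of borders, was on the minus strand and lay outside the 100 bp around the brain peak centre. Around the Neurl4 peak, 4 borders lay within 100 bp of the centre, with signals from 0.379 to 0.519. These 4 formed the only 2 close pairs of the window, 16 and 56 bp wide. Their midpoints lay 12295 and 12177 bp upstream of the outermost Gps2 start. The signal sums were 0.850 and 0.914, reached by 84.1% and 80.1% of pairs.

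In these windows the brain peaks lay mostly at starts, often those of neighbouring genes. Of the 7 brain peaks, 6 lay within 1 kb of an annotated start, against 37.9% of all brain peaks. Of the 5 eWAT peaks, 2 did, against 8.76% of all eWAT peaks. For 5 of the 7 brain peaks the nearest start belonged to a neighbour (Diap1, Rell2, 2810408A11Rik, Neurl4 and Eif5a), and for 4 of the 5 eWAT peaks it belonged to the member. The windows of Tbl1x and Tbl1xr1 each held 0 other protein-coding genes, and those of Ncor1, Hdac3 and Gps2 held 2, 4 and 5. The Gps2 window gave 3 of the 5 brain cases and had no eWAT peak. The part of gene density in this difference was not tested. A peak within 1 kb of any member's own start was found 3 times, the Ncor1 eWAT peak and the brain peaks before Hdac3 and Tbl1xr1. Liver borders lay within 1 kb of a member's own start at Ncor1, Hdac3, Tbl1xr1 and Gps2, but not at Tbl1x.

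All 7 brain peaks had a liver border within 100 bp of the centre, against 36.4% of all brain peaks, and 1 of the 5 eWAT peaks did, the Tbl1x peak, against 30.0% of all eWAT peaks. Within 50 bp of the centre the counts were 4 of 7 brain and 0 of 5 eWAT peaks, against 27.4% and 24.5% of the lists. None of these borders had a low p-value within the list's range: with only borders of p at or below 0.01, which make up 32.6% of the list, none of the 12 peaks had a border, where 10.5% of all eWAT and 9.83% of all brain peaks did. Place moved with this count, since 60.8% of all brain peaks at starts had a border within 100 bp and 21.6% of the other brain peaks did; its part was not tested. A plus-strand border before and a minus-strand border after the centre, both within 200 bp, were found around 4 brain peaks (12.1% of all brain peaks) and 1 eWAT peak (11.6% of all eWAT peaks). These were the brain peaks at Diap1, Tbl1xr1, Neurl4 and Eif5a and the eWAT peak at Tbl1x.

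**Figure D3:**
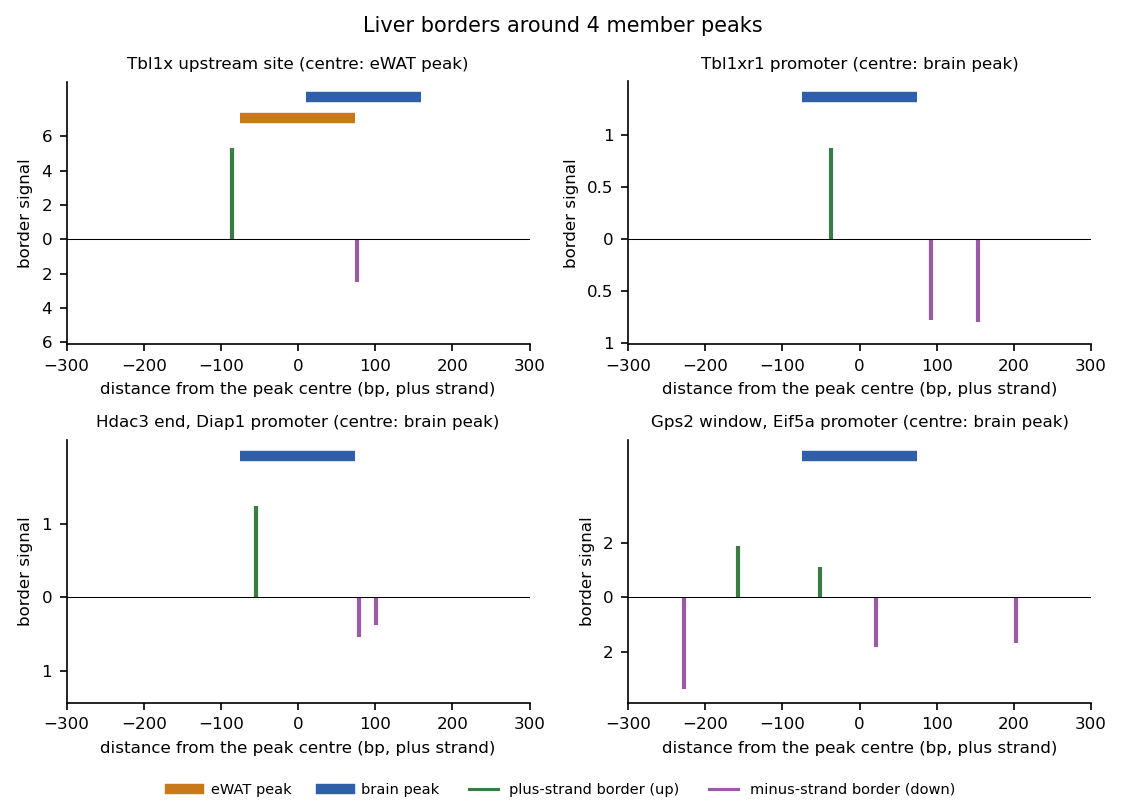
Liver borders within 300 bp of the centre of 4 peaks, with the deposited signal as line height (plus strand up, minus strand down, each panel with its own scale) and the peaks as horizontal bars. At Tbl1x the borders of 5.33 and 2.51 frame the eWAT peak, at Tbl1xr1 and Diap1 the plus-strand border stands before the centre and the minus-strand borders after it, and at Eif5a the minus-strand border of 3.34 stands before both plus-strand borders.

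Base composition followed the same division. The 7 brain peaks had 51.3% to 71.3% G and C (median 64.7%), and the 5 eWAT peaks 44.7% to 58.7% (median 47.3%). Over whole lists the medians were 55.3% in brain and 48.7% in eWAT. Place moved with these values too: brain peaks within 1 kb of a start had a median of 64%, near that of the 7, and the other brain peaks 52%, while eWAT peaks had 54% at starts and 48% elsewhere. The brain peaks at Diap1 and Tbl1xr1 were the richest, each at 71.3%.

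Motif matches were counted on both strands of each 150 bp peak. AGGTCA was found in 1 of 5 eWAT peaks (19.0% of the list) and 1 of 7 brain peaks (11.7%), the eWAT peak in Rell2 and the brain peak between Rell2 and Hdac3. No peak held the longer RORE (3.46% of eWAT and 2.16% of brain peaks) or the DR2 (0.832% and 0.384%). Both were searched with A or G as the first base of each half-site, unlike AGGTCA alone. The shorter core GGTCA, which is contained in AGGTCA, was in 3 eWAT peaks (37.2% of the list), at Ncor1, Rell2 and Tbl1x, and in 1 brain peak (29.0%). In the Tbl1x region shown above the core and the bases before it read CTGTAGGGTCA on the minus strand, which holds no AGGTCA match. It ends in GGGTCA, the form with G that the RORE and DR2 searches allowed, but no RORE or DR2 match was found there.

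The E-box CACGTG, the site of the clock activators BMAL1 and CLOCK among other factors, was in 2 eWAT peaks, in Rell2 and at Tbl1x, and in 2 brain peaks, at Diap1 and Tbl1x. It was in 11.4% of all eWAT and 8.17% of all brain peaks. At Tbl1x both peaks contain the same match, at 74754738 to 74754743, so it counts once as sequence. The GC box GGGCGG was in 3 of 7 brain peaks (20.8% of the list, and 42.1% of brain peaks within 1 kb of a start, where 6 of the 7 lay). It was in 1 of 5 eWAT peaks (3.72% of the list, and 14.8% of those within 1 kb of a start). CCAAT was in 1 peak of each list (20.6% of eWAT and 18.9% of brain peaks), and ATCAAT in the Tbl1x eWAT peak alone (3.06%). No member peak held the ETS motif CCGGAA (2.62% of eWAT and 8.10% of brain peaks), the FOXA motif TGTTTNC (14.1% and 11.7%), the CEBP motif TTGCNNAA (18.7% and 5.63%) or the NF1 motif TTGGCA (19.4% and 12.6%). With so few peaks, a count of 0 at these shares does not set them apart from the lists. These are matches of letters and not measured sites.

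Across all 5 windows the liver borders had signals near those of the list as a whole. Their median signal was 0.492 against 0.471 in the whole list, and 77 of 147 (52.4%) lay above the list median. Their places were taken over all protein-coding genes, so introns and starts of neighbours are included. Introns held 90 of the borders, 45 were within 1 kb of a start, 11 were intergenic and 1 was in an exon. The 9 borders in the top 5% of signals (6.12% of the 147) were 1 at Ncor1, 2 each at Tbl1x and Tbl1xr1 and 4 in the Gps2 window. The 15 close pairs were 7 to 58 bp wide (median 24 bp, against 29 bp in the list), and 6 had a signal sum above the list median. Some of the 15 shared a minus-strand border, at Ncor1 and Tbl1x. A spacing of 24 to 26 bp was found in 4 of the 15, against 12.5% of pairs in the list.

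**Figure D4:**
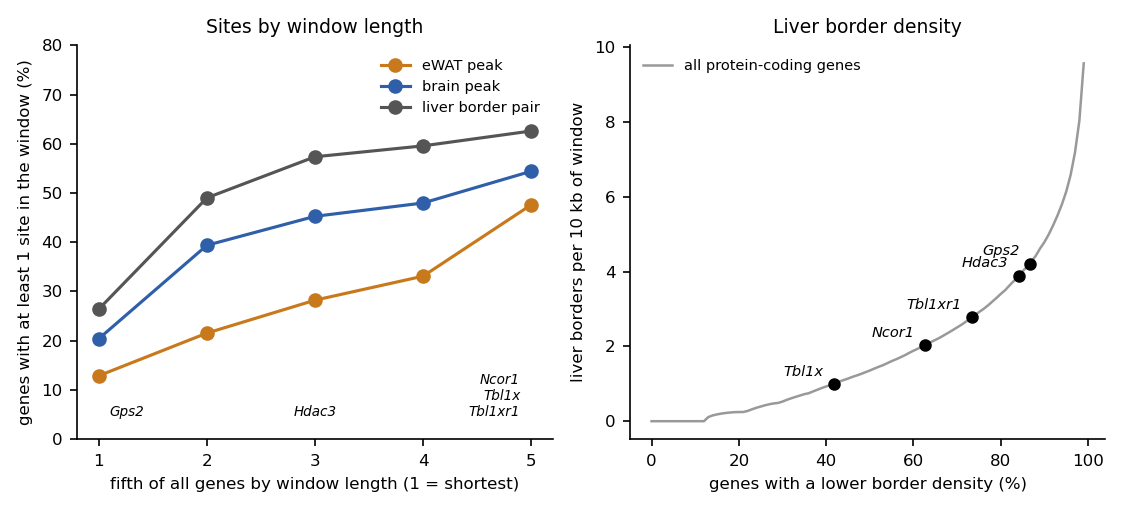
Left, percentage of protein-coding genes with at least 1 eWAT peak, brain peak or liver border pair against the class of window length (1 is the shortest, 5 the longest), with the members written under their class. Right, liver borders per 10 kb of window against the percentage of genes with a lower density, for all genes (line) and the 5 members (points), which run from Tbl1x at 0.990 to Gps2 at 4.22.

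Other corepressor genes had sites as well. Of 15 genes for other corepressors and histone deacetylases, 8 had an eWAT peak, 11 a brain peak, 6 both, and all 15 a liver border. Over all protein-coding genes these shares were 28.7%, 41.5%, 17.5% and 87.7%. The median window of the 15 was 96.3 kb, against 55.4 kb over all genes, and the part of window length was not tested. Hdac5, a class IIa deacetylase, led both lists, with a score of 59.8 in eWAT (reached by 2.12%, at the start of the neighbouring gene G6pc3) and 116.4 in brain (reached by 0.889%, 100 bp upstream of Hdac5). Nrip1, the receptor corepressor RIP140, followed in eWAT with 48.6 (reached by 3.59%). Sin3a and Kdm1a, the latter a histone demethylase, tied in brain at 50.9, reached by 10.9% of brain peaks.

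Sites also lay near coactivator genes. Of 8 such genes, 6 had an eWAT peak, 5 a brain peak, 4 both, and 8 a border. The shares over all genes were 28.7%, 41.5%, 17.5% and 87.7%. The median window of the 8 was 147.9 kb, and its part in the counts was not tested. In eWAT the best score in the Crebbp window, a histone acetyltransferase gene, was 30.4, at the start of the neighbour Trap1. The p160 coactivator genes Ncoa3 and Ncoa1 followed with 26.3 (nearest to the start of Sulf2) and 22.3 (in an Ncoa1 intron). In brain the best scores were 65.4 for Ppargc1b, 40.0 in the window of the Mediator subunit gene Med1, 272 bp upstream of the neighbour Cdk12, and 36.4 for Ncoa3. The lists hold binding sites and not expression, so cell type markers do not test the tissue. All 6 adipocyte marker genes had an eWAT peak and 4 had a brain peak, and all 6 neuron marker genes had a brain peak and 2 had an eWAT peak. Median windows were 51.6 kb for the adipocyte and 208.1 kb for the neuron markers, and the part of window length was not tested. None of the 4 dopamine neuron marker genes had a peak in either list. The 6 hepatocyte marker genes had a median of 11.6 liver borders per 10 kb, against 3.33 for adipocyte and 0.492 for neuron markers.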

How the data were processed

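Per the submitters' processing notes, the samples were processed on mm9 with Bowtie (0.12.8 for ChIP-seq, 1.1.1 for ChIP-exo) and HOMER, with no roles stated. Not given in the sources used here were caller settings, thresholds, use of inputs, pooling of replicates and sequencing depth. The deposited peaks are 150 bp wide and carry the authors' score, of unstated unit, so scores were ranked only within a list. Where a rank is given, tied peaks take the best one. Percentages count every peak scoring at least as high, ties included. All scores lie within 0.06 of whole multiples of 1 step per list; in steps the medians are 14 in eWAT and 7 in brain. Per the file headers, each border has a signal and a p-value; these p-values run up to 0.0500.

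Peaks were placed by their centre in GENCODE vM1 genes on mm9 with Python 3.11.15, pandas 2.3.3, numpy 2.4.6 and pysam 0.24.0; figures used matplotlib 3.10.9. A shared peak overlaps by at least 1 bp. The counting was tested on simulated data. Peaks in the windows and the gene nearest to each were named. Of the other corepressor and coactivator lists, up to 3 genes each with the best-ranked peak per tissue were named, with Nr1d1 for scale and the 3 genes most like Tbl1x; 1 gene that this rule names is not reported here. Peaks just outside the windows were chosen after their values were seen. Alternatives were window size, nearest start, overlap, distances, p-value, signal and motif settings. The members and lists were chosen with earlier results of these data known. The other 13 groups (19 samples) were not analysed here.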

Additional observations from a re-analysis of the deposited data

How the results depend on the processing

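Of 48 alternative values, 34 stayed within 1.5 times of the reported count. Among these, a window of 10 kb beyond the gene body left 3 members with a close border pair, all but Hdac3 and Gps2. Counting only peaks above the list median score left 3 of 5 eWAT peaks; giving each peak to the nearest start gave 12 eWAT peaks and left 2 members with a brain peak, Tbl1x and Tbl1xr1. With borders of p at most 0.01, 44 of 147 borders and 0 of 8 peaks with a border remained in the count. Pairing the remaining borders anew gave 3 pairs (in 2 members), against 15, and not all 3 were among the 15. With borders above the median signal the counts were 77 borders and 8 pairs. A spacing of 5 to 200 bp, chosen after seeing the data, gave 33 pairs. An overlap of at least 75 bp left 0 shared peaks, a border distance of 50 bp left 4 peaks with a border, and AGGTCA was in 1 peak when only the central 100 bp were searched, against 2. Its GGTCA core, also chosen after seeing the data, was in 4. No paired analysis was possible because the files hold 1 list per group, and no replicate could be left out for the same reason. Depth is unknown, so a window with no peak shows only that none was called.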

Other observations

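Several peaks outside the windows had a member's start as the nearest protein-coding start, most of them before Tbl1xr1, which lies next to a long stretch without other protein-coding starts. In eWAT, 7 such peaks lay 66471 to 513040 bp upstream of Tbl1xr1. The strongest, at chromosome 3, 21851951 to 21852100, had a score of 39.5, reached by 6.01% of eWAT peaks, and stood 123548 bp upstream. In brain, 6 such peaks lay 140956 to 636261 bp upstream, the strongest with a score of 36.4, reached by 28.3% of brain peaks. Tbl1x had 1 in each list, 33425 bp upstream in eWAT with a score of 15.2 and 77395 bp upstream in brain with a score of 43.6. None of these peaks overlapped a peak of the other tissue, and the files hold nothing that ties them to either gene.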
